A study of Homo sapiens with 8 samples.

Results

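The genes described here are 35 genes of cholesterol and fatty acid synthesis and of the SREBP system that regulates them, chosen by name from the 28859 gene symbols of the deposited table. All 35 were present. They were followed in T47D, an established luminal, hormone-receptor-positive human breast cancer cell line, sequenced as bulk RNA in 8 libraries. The control cells carried a control plasmid (labelled EV). The cells of the other groups carried a plasmid for an HA-tagged GATA3: the wild-type form (HA_GATA3_wt), or one of the truncated forms HA_GATA3_TR1 and HA_GATA3_TR2. Each of the 4 groups had 2 libraries. GATA3 is a zinc-finger transcription factor of luminal breast epithelium, and T47D cells also express their own copy. The labels give neither the promoter of the plasmids, nor whether a line was 1 clone or a pool, nor whether replicates came from separate cultures. The p-values therefore measure the spread between these libraries, which may be technical.

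Cells build cholesterol from acetyl-CoA through mevalonate, isoprenoid units, squalene and a series of sterols, and they build fatty acids from the same acetyl-CoA through malonyl-CoA. The transcription factors SREBP-1 and SREBP-2, encoded by SREBF1 and SREBF2, switch on many genes of both routes. They are made as membrane proteins, carried out of the endoplasmic reticulum by SCAP and held there by INSIG1 and INSIG2 when sterols are plentiful. SREBP-1 is best known for fatty acid genes and SREBP-2 for sterol genes. Luminal breast cancer cells commonly express the fatty acid synthase system at high levels.

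The libraries held 13292861 to 19572394 reads on genes, and mitochondrially encoded genes took 7.11% to 8.50% of normalized counts. Luminal markers (8 of 8 in the table) summed to normalized counts of 134140 and 139890 in control, 137330 and 138610 in wild type, 168850 and 165670 in TR1 and 149740 and 144410 in TR2, highest in both TR1 libraries. The row of GATA3, which cannot separate the plasmid from the cell's own copy, read 13726 and 12676 with the control plasmid, 13555 and 13833 with wild type, 8638 to 9506 with TR1 and 10235 to 10588 with TR2. Control and wild type overlapped, and both truncated forms lay below them. Adipocyte markers (5 in the table) summed to 107 to 167, with FABP4 at 0 in all 8 libraries. Fibroblast markers (4 in the table) summed to 0 in all control and wild-type libraries, to 92.1 and 105 with TR1 and to 6.29 and 5.57 with TR2, with COL1A2 at 0 throughout. Leukocyte markers summed to at most 4.85 and hepatocyte markers to at most 1.22. Luminal and fibroblast marker sums thus were both higher with TR1, and their part in the TR1 results below was not tested. GATA3 is itself among the 8 luminal markers and went the other way. A sum mostly follows its most abundant members. In bulk RNA, a change in the share of cells and a change in RNA per cell cannot be told apart.

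All 35 genes passed the filter on low values, which asked for 10 normalized counts or more in 2 or more libraries, and 34 of them had at least 10 in all 8. THRSP passed through its 2 wild-type libraries only, so it had to differ from the rest. Per kilobase of annotated exon, the mean over the 8 libraries was highest for SCD at 6985 normalized counts, followed by FASN at 2486, ACLY at 2114, FDFT1 at 1331 and ELOVL5 at 1303. The lowest were STARD4 at 21.4, HSD17B7 at 21.2, AGPAT4 at 10.9 and THRSP at 8.40. SCD, which makes monounsaturated fatty acids, FASN, which builds palmitate, and ACLY, which supplies cytosolic acetyl-CoA, thus stood at the top of the set in these cells.

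**Figure D1:**
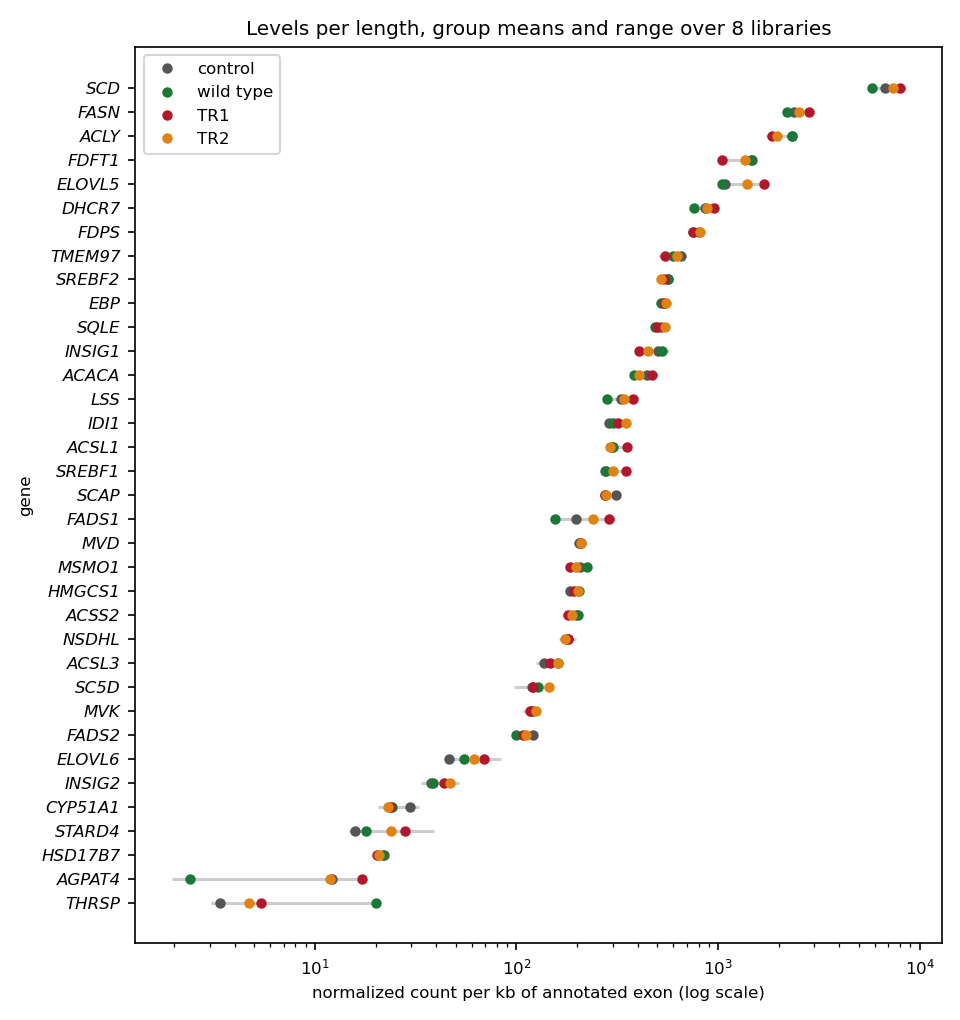
Normalized count per kilobase of annotated exon (log axis) of each of the 35 genes. Points are group means of 2 libraries, and the grey line spans the lowest to the highest of the 8 libraries. SCD is highest with a mean of 6985 over the libraries, and AGPAT4 and THRSP at the bottom have the widest spans, with the wild-type point set apart.

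Of the 35 genes, 14 passed the threshold (limma, p adjusted over all 14881 genes tested, under 0.05) in at least 1 of the 6 pairwise comparisons and 21 passed in none. Of all genes tested, 18.1% passed in at least 1. The 14 include THRSP, which the filter let in through its high group. Wild type against control gave 2 genes, 1 higher and 1 lower, where 1.69% of all genes tested passed (0.685% higher and 1% lower). TR1 against control gave 7, of which 5 were higher and 2 lower, where 10.6% of all genes passed (4.91% and 5.69%). TR2 against control gave 0, where 0.921% of all genes passed (0.524% and 0.396%). Voom on the recovered reads also called 0 there, where 0.853% of all genes passed. TR1 against wild type gave the most, 14 genes with 9 higher and 5 lower, where 15% of all genes passed (7.6% and 7.38%). TR2 against wild type gave 5, 4 higher and 1 lower, where 5.24% passed (2.75% and 2.49%). TR2 against TR1 gave 1, higher, where 1.22% passed (0.585% and 0.632%). Without THRSP, which the filter let in through its high group, the counts were 1 (lower) for wild type against control, 13 (9 higher, 4 lower) for TR1 against wild type and 4 (all higher) for TR2 against wild type. The split into higher and lower moved with the scaling: centring each library on its median gave 2 higher and 3 lower for TR1 against control and 5 and 4 for TR1 against wild type, quantile normalization gave 1 and 2 for wild type against control, and voom gave 3 and 2 for TR1 against control. Comparisons that share a group share its libraries and are not independent of each other.

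The median of the set stayed near 0 in every comparison. The median log2 fold change was -0.02 for wild type against control, 0.03 for TR1 and 0.03 for TR2 against control, 0.01 for TR1 and 0.08 for TR2 against wild type and 0.02 for TR2 against TR1. The medians over all genes tested lay between -0.01 and 0.02. Genes of the same route were called in opposite directions. In TR1 against control, the fatty acid genes FASN, SCD, FADS1 and ELOVL5 were called higher and ACLY, the step before them, lower. Of 18 alternatives, the FASN call was kept in 5, SCD in 3 and ACLY in 13, and FADS1 and ELOVL5 in all. ACACA, the step between ACLY and FASN, was 0.08 there and did not pass (adjusted p = 0.518). In sterol synthesis, FDFT1 fell with TR1, while LSS and DHCR7 were higher in TR1 than in wild type.

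**Figure D2:**
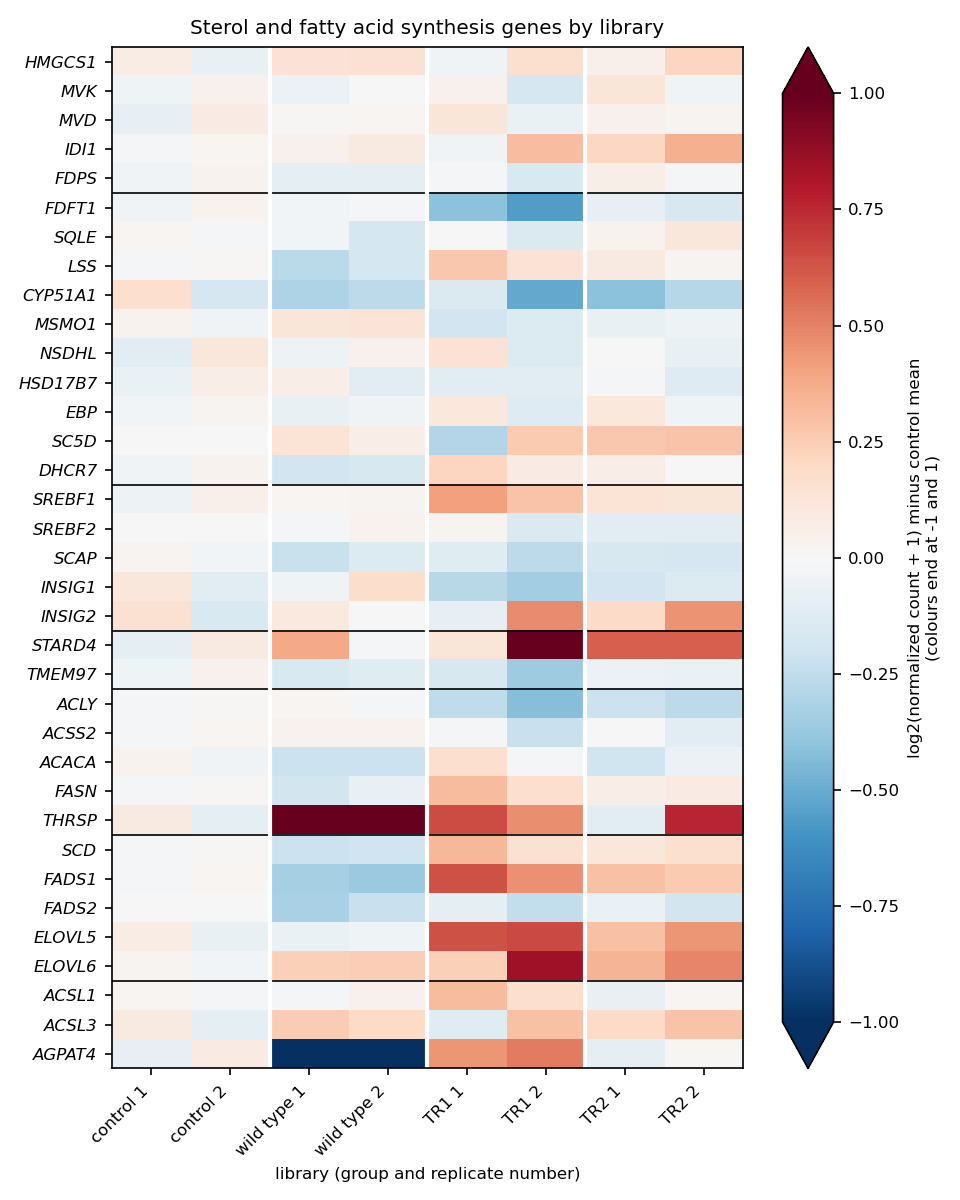
Log2 normalized count of each gene (rows, grouped by role) in each of the 8 libraries (columns), shown as the difference from that gene's control mean, with colours ending at -1 and 1. AGPAT4 is low and THRSP high in both wild-type libraries, and FADS1 and ELOVL5 are high in both TR1 libraries and less so in TR2. SCD lies above the control mean in the TR1 and the TR2 libraries.

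The number of calls depended on the TR1 libraries. When all libraries are fitted together they share 1 estimate of spread, and the TR1 pair was the widest: over all genes tested, the SD of the log2 difference between its libraries was 0.443, against 0.331 for control, 0.294 for wild type and 0.279 for TR2. A fit with no TR1 library, added after the data were seen, called 8 of the 35 for wild type against control (1 higher, 7 lower), 8 for TR2 against control (7 higher, 1 lower) and 10 for TR2 against wild type (8 higher, 2 lower). The same fit called 11.7%, 18.4% and 14.1% of all genes tested in these comparisons. Without TR1 replicate 1 the count for TR1 against control was 18, where 34.7% of all genes passed, and without TR1 replicate 2 it was 11, where 11.3% passed.

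The promoter sequences below show stretches upstream of a RefSeq start of some of the genes described here. AGPAT4 and THRSP had the largest differences, but THRSP entered the test through its high group. SCD and ACLY were among the most abundant and were called in opposite directions with TR1. SREBF1 was the regulator called higher with TR1. ACLY has 2 RefSeq windows, and the 1 used here lies inside the annotated span of the gene. The sequences are from RefSeq (GRCh38.p14), on the strand of the gene, and hold only bases with no GENCODE exon. Capitals mark a CCAAT box, read on either strand, or, in SREBF1 only, a GATA motif read on the other strand.
AGPAT4, chr6:161274062-161274311, minus strand: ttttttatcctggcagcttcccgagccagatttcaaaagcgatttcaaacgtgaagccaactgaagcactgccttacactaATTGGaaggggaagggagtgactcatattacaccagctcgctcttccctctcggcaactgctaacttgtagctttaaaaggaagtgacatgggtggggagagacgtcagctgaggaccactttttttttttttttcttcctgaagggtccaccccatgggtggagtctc
THRSP, chr11:78063611-78063860, plus strand: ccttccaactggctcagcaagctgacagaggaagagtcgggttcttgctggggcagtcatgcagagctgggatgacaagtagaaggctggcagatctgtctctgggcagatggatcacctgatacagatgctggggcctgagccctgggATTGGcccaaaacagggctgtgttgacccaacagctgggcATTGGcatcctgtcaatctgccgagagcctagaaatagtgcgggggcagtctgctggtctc
SCD, chr10:100346983-100347123, plus strand: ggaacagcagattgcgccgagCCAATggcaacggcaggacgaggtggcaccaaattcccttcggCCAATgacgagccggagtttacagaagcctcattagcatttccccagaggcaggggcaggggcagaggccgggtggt
ACLY, chr17:41919023-41919272, minus strand: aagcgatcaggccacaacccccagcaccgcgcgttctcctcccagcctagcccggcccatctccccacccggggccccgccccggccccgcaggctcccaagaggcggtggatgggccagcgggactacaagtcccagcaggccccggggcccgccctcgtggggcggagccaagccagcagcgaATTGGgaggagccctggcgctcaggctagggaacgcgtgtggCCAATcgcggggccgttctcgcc
SREBF1, chr17:17837003-17837236, minus strand: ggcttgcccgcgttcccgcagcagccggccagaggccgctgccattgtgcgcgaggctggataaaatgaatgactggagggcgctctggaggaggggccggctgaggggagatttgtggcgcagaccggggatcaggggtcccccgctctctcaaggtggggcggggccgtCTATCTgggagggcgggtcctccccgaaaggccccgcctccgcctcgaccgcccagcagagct

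RefSeq promoters were matched for 32 of the 35 genes, with 47 windows of 250 bases upstream of a start, since some genes have several starts. The CCAAT box, bound by NF-Y, a common partner of SREBP, was in 61.7% of these windows and in 32% of all 35116 promoter windows of that length. It was found in 25 of the 32 genes, among them AGPAT4, THRSP, SCD and ACLY. The sterol regulatory element, searched as TCACNCCAC on both strands, was in 4.26% of the windows (ACSL1 and SREBF2) against 0.883% of all. The E-box CACGTG, a palindrome, was in 10.6% against 6.34%. GATA motifs, searched as AGATAA and AGATAG and also as TGATAA and TGATAG on both strands, were in 14.9% against 22.3% of all windows, in 7 genes: ACACA, CYP51A1, EBP, ELOVL5, FDPS, HSD17B7 and SREBF1. Of these 7 genes, ELOVL5, SREBF1 and ACACA passed the threshold in a comparison and the others did not. In at least 1 comparison, 14 of the 35 genes, THRSP among them, and 18.1% of all genes tested passed. A link between the motif and the calls was not tested. A match says only that the letters are present in the window.

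Desaturases and elongases supplied several of the calls. SCD, FADS1 and ELOVL5, 3 of the 5 genes of this group, were higher in TR1 than in control, in TR1 than in wild type and in TR2 than in wild type, where 4.91%, 7.6% and 2.75% of all genes tested were called higher. None of the 5 was called lower in any comparison of the main fit. With no TR1 library in the fit, SCD, FADS1 and FADS2 were lower in wild type than in control (adjusted p = 0.0096, 0.0013 and 0.0165), and FADS1 was also called lower there with quantile normalization (0.0495) and after removal of the length and GC trend (0.0229). The median log2 fold change of the group was 0.54 for TR1 against control, the value of ELOVL6, and it moved to 0.34 without TR1 replicate 2 and to 0.29 after removal of that trend. It was 0.45 for TR1 against wild type and 0.34 for TR2 against wild type.

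FADS1, the delta-5 desaturase of polyunsaturated fatty acid synthesis (chromosome 11, 61799625 to 61829318, minus strand, GRCh38), read 1994 and 2042 in the control libraries, 1605 and 1564 in wild type, 3144 and 2774 in TR1 and 2475 and 2423 in TR2. The 4 groups did not overlap, with wild type lowest, then control, then TR2, and TR1 highest. The log2 fold change was 0.55 ± 0.07 (SE) for TR1 against control (adjusted p = 0.0024), a fold of 1.46 with a 95% interval of 1.30 to 1.64. It was 0.90 ± 0.07 for TR1 against wild type (adjusted p = 0.0001), a fold of 1.86. For TR2 against wild type it was 0.63 ± 0.07 (adjusted p = 0.0017), a fold of 1.55. These 3 calls held under every alternative, each left-out library included. The other neighbours in that order did not pass: wild type against control was -0.35 (adjusted p = 0.0584), TR2 against control 0.28 (adjusted p = 0.135) and TR2 against TR1 -0.27 (adjusted p = 0.177). With no TR1 library in the fit, FADS1 was called in wild type against control and in TR2 against control as well. FADS1 shares 490 exon bases with FADS2 on the opposite strand, and the strand setting of the counting is not given in the sources used here.

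ELOVL5, which elongates polyunsaturated fatty acids (chromosome 6, 53267398 to 53349179, minus strand), read 4323 and 3921 in control, 3937 and 3994 in wild type, 6417 and 6510.1 in TR1 and 5050.1 and 5597 in TR2. Control and wild type overlapped, TR2 lay above both and TR1 above TR2. TR1 exceeded control by 0.65 ± 0.07 on the log2 scale (adjusted p = 0.00092), a fold of 1.57, and wild type by 0.70 ± 0.07 (adjusted p = 0.000335), a fold of 1.63, and both calls held under every alternative. TR2 exceeded wild type by 0.42 ± 0.07 (adjusted p = 0.0112). Omitting either wild-type library (adjusted p = 0.118 and 0.105 for replicates 1 and 2) or TR2 replicate 2 (0.118) ended that call. TR2 against control, at 0.37, did not pass (adjusted p = 0.0585). TR2 against TR1, at -0.28, did not pass either (adjusted p = 0.141).

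SCD, the delta-9 desaturase that makes oleate (chromosome 10, 100347124 to 100364834, plus strand), read 35887 and 36291 in control, 31070.2 and 31407 in wild type, 45526 and 40171 in TR1 and 38939 and 40344 in TR2. Wild type was lowest and control next, while TR1 and TR2 lay above both and overlapped. TR1 exceeded wild type by 0.45 ± 0.06 (adjusted p = 0.0021), a fold of 1.37 with a 95% interval of 1.24 to 1.52, and this held under every alternative. TR1 exceeded control by 0.24 ± 0.06 (adjusted p = 0.0455), a call near the threshold. Omitting any 1 of the 6 control, wild-type and TR2 libraries ended it: the adjusted p was 0.195 and 0.171 for control replicates 1 and 2, 0.103 for either wild-type library, and 0.087 and 0.0867 for TR2 replicates 1 and 2. Median centring took the difference to 0.15 (adjusted p = 0.406), and the call was kept in 3 of 18 alternatives. TR2 exceeded wild type by 0.34 ± 0.06 (adjusted p = 0.0179). Omitting either wild-type library (adjusted p = 0.164 and 0.150 for replicates 1 and 2) or either TR2 library (0.108 and 0.159) ended that call. One annotated pseudogene, SCDP1, could take or give reads.

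The other desaturase, FADS2, which acts on the first step of the polyunsaturated route, ranged from 1062 to 1337 and passed in no comparison. Its difference between wild type and control was -0.28 (adjusted p = 0.188). ELOVL6, which elongates palmitate, ranged from 332 to 608, and its TR1 libraries read 399 and 608. TR1 against control was 0.54 for ELOVL6 and did not pass (adjusted p = 0.0793).

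**Figure D3:**
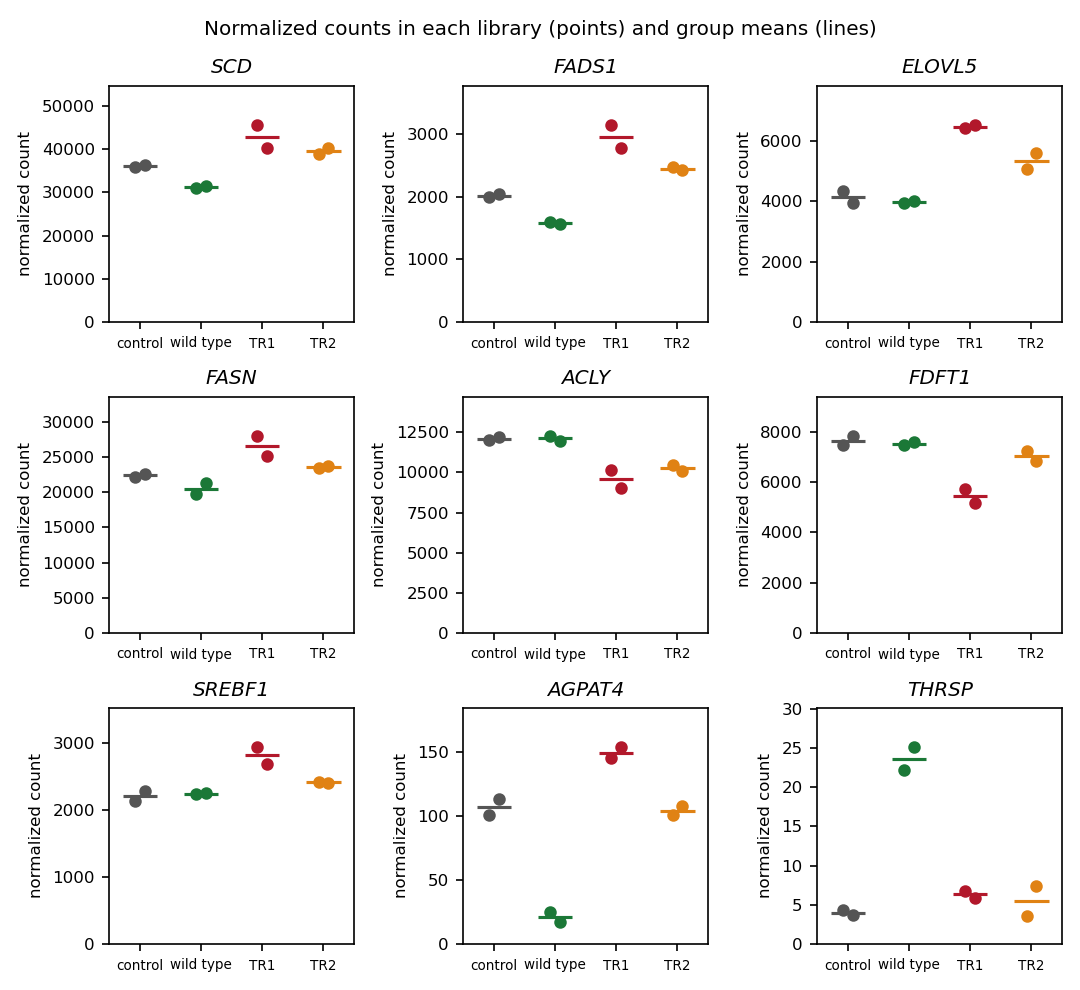
Normalized counts (linear axes from 0) of 9 genes that passed in at least 1 comparison. Points are libraries, replicate 1 left and replicate 2 right, and lines are group means. FADS1 separates all 4 groups, FDFT1 is lowest in TR1, AGPAT4 is lowest and THRSP highest in wild type.

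The enzymes that supply and build fatty acids split. FASN, fatty acid synthase, read 22190.0 and 22645 in control, 19729 and 21284 in wild type, 27969.8 and 25218 in TR1 and 23454 and 23757 in TR2. The groups did not overlap and stood in the same order as for FADS1. FASN was higher in TR1 than in wild type by 0.37 ± 0.06 (adjusted p = 0.0056), a fold of 1.30. Omitting wild type replicate 1 ended that call (adjusted p = 0.0778). TR1 exceeded control by 0.24 ± 0.06 (adjusted p = 0.0464), and omitting any 1 library outside TR1 ended this. The adjusted p was then 0.204 and 0.162 for the control replicates, 0.0861 and 0.0863 for the wild-type ones and 0.0927 and 0.0918 for the TR2 ones. Median centring took the difference to 0.15 (adjusted p = 0.400), and the call was kept in 5 of 18 alternatives.

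ACLY, ATP citrate lyase (chromosome 17, 41866908 to 41930542, minus strand), moved the other way. It read 12025 and 12194 in control and 12249.8 and 11987 in wild type, but 10173 and 9035 in TR1 and 10441 and 10116 in TR2. Control and wild type overlapped, as did TR1 and TR2, and no library of the truncated forms reached the others. ACLY fell by 0.34 ± 0.06 (SE) on the log2 scale in TR1 against control (adjusted p = 0.0135) and by 0.34 against wild type (adjusted p = 0.0093), a fold of 0.79 in each. Omitting either control library ended the first call (adjusted p = 0.0827 and 0.0971 for replicates 1 and 2), and omitting either wild-type library ended the second (0.0951 and 0.0739). TR2 against wild type, at -0.24, did not pass (adjusted p = 0.0806), nor did TR2 against control (-0.24, adjusted p = 0.147).

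ACACA, acetyl-CoA carboxylase, which makes malonyl-CoA, read 5936 and 5645 in control, 4987 and 4996 in wild type, 6499.9 and 5756 in TR1 and 5039 and 5561 in TR2. It was higher in TR1 than in wild type by 0.29 ± 0.08 (adjusted p = 0.0347). Each left-out library outside TR1 ended that call: the adjusted p was 0.18 and 0.185 for the wild-type replicates, 0.0599 and 0.0598 for the control ones and 0.0508 and 0.0505 for the TR2 ones. It was 0.503 with the length and GC trend of each library removed, an alternative added after the data were seen. ACSS2, which makes acetyl-CoA from acetate, ranged from 906 to 1087 and passed in no comparison.

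THRSP, the thyroid hormone responsive Spot 14 protein, a lipogenic regulator (chromosome 11, 78063861 to 78068351, plus strand), read 4.30 and 3.66 in control, 22.2 and 25.1 in wild type, 6.79 and 5.86 in TR1 and 3.60 and 7.42 in TR2. Wild type stood apart and the other 3 groups lay close together. The reads summed to 45 in wild type, 7 in control, 14 in TR1 and 12 in TR2. The ratio of normalized reads was 5.88 for wild type against control, with an exact 95% binomial interval of 2.63 to 15.5 that covers counting error only. On the log2(normalized count + 1) scale, which understates the change of low genes, the difference was 2.31 ± 0.39 (adjusted p = 0.0241). TR1 against wild type was -1.75 ± 0.39 (adjusted p = 0.0185) and TR2 against wild type -1.98 ± 0.39 (adjusted p = 0.0224). Omitting either control library (adjusted p = 0.126 and 0.152 for replicates 1 and 2) or either wild-type library (0.184 and 0.217) ended the first call. The second ended when either wild-type library was omitted (0.0966 and 0.134), and the third when either wild-type library (0.135 and 0.186) or TR2 replicate 1 (0.17) was omitted. Since THRSP entered the test through its high group, these p-values are not a fair test of it. With no filter on low values, where entry does not depend on the level, the adjusted p was 0.0816, 0.0582 and 0.0739 for the 3 differences, and none passed. THRSP overlaps NDUFC2 on the opposite strand by 48 exon bases, 4.09% of its exons.

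AGPAT4, an acyltransferase that makes phosphatidic acid from lysophosphatidic acid (chromosome 6, 161129979 to 161274061, minus strand), had the largest difference of the set. It read 101 and 113 in control, 25.05 and 17.1 in wild type, 145 and 154 in TR1 and 101 and 108 in TR2. Wild type lay far below the other groups, control and TR2 overlapped, and TR1 lay above both. Wild type against control was -2.31 ± 0.20 (adjusted p = 0.00101), 4.97-fold lower. TR1 exceeded wild type by 2.79 ± 0.20 (adjusted p = 4.2e-05), a fold of 6.93 with a 95% interval of 5.08 to 9.46. TR2 exceeded wild type by 2.27 ± 0.20 (adjusted p = 0.00037), a fold of 4.84. These 3 calls held under every alternative. TR1 against control, at 0.48, did not pass (adjusted p = 0.15). Of the acyl-CoA ligases, ACSL1 ranged from 1782 to 2337, highest in both TR1 libraries, and ACSL3 from 909 to 1211, and neither passed. TR1 against control was 0.24 for ACSL1 (adjusted p = 0.0721).

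The mevalonate arm was the stillest group. None of its 5 genes passed in any comparison, and their log2 fold changes over all 6 lay between -0.09 and 0.28. HMGCS1, which makes HMG-CoA, ranged from 817 to 999, MVK, mevalonate kinase, from 697 to 854, and MVD, mevalonate diphosphate decarboxylase, from 908 to 1048. IDI1, isopentenyl diphosphate isomerase, ranged from 1215 to 1588 and FDPS, farnesyl diphosphate synthase, from 2675 to 3099. FDPS has 8 annotated pseudogenes that could take or give reads. A fit with no TR1 library called IDI1 higher in TR2 than in control and in wild type. A threshold missed with 2 libraries a group does not show that the values were alike.

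In the squalene and sterol arm, 4 of 10 genes passed in TR1 against wild type, 2 higher and 2 lower, 1 in TR1 against control and 1 in TR2 against TR1. Of all genes tested, 15%, 10.6% and 1.22% passed in these comparisons. FDFT1, squalene synthase, which commits the pathway to sterols (chromosome 8, 11795573 to 11839309, plus strand), read 7471 and 7829 in control, 7488 and 7597 in wild type, 5746 and 5190.0 in TR1 and 7230.0 and 6839.9 in TR2. TR1 lay below every other library, and TR2 lay below control and wild type. FDFT1 was lower in TR1 than in control by 0.49 ± 0.07 (log2 fold change -0.49, adjusted p = 0.0027), a fold of 0.714, and lower than in wild type (-0.47 ± 0.07, adjusted p = 0.0022). Both calls held under every alternative. It was the only gene of the 35 that passed in TR2 against TR1, at 0.36 ± 0.07 (adjusted p = 0.0405). Omitting any 1 library outside TR1 ended that call, with adjusted p of 0.0834 and 0.083 for control replicates 1 and 2, 0.127 and 0.126 for the wild-type ones and 0.366 and 0.22 for the TR2 ones.

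LSS, lanosterol synthase, read 2368 and 2401 in control, 1976 and 2110.2 in wild type, 2879.6 and 2629 in TR1 and 2540.3 and 2424 in TR2. Its groups did not overlap and stood in the order of FADS1. TR1 exceeded wild type by 0.43 ± 0.07 (adjusted p = 0.0044), a fold of 1.35, and of the left-out libraries only wild type replicate 1 ended the call (0.0627). DHCR7, which makes the last step to cholesterol, read 3487 and 3658 in control, 3121 and 3189.8 in wild type, 4152 and 3790.5 in TR1 and 3742 and 3579 in TR2. TR1 exceeded wild type by 0.33 ± 0.07 (adjusted p = 0.0117), a call that ended when either wild-type library was omitted (0.108 and 0.0862). MSMO1, a sterol C4 methyl oxidase, read 608 and 580.2 in control, 646 and 652 in wild type, 519 and 541 in TR1 and 565 and 573 in TR2. It was lower in TR1 than in wild type (-0.29 ± 0.08, adjusted p = 0.0403). Omitting any library outside TR1 ended this call, with adjusted p of 0.0661 and 0.066 for the control replicates, 0.188 and 0.219 for the wild-type ones and 0.0827 and 0.0825 for the TR2 ones.

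The other 6 sterol genes passed in no comparison. SQLE, squalene epoxidase, ranged from 1981 to 2413, EBP, a sterol isomerase, from 1190.4 to 1406, NSDHL, a sterol decarboxylase, from 324 to 395 and HSD17B7, a 3-ketosteroid reductase, from 95.6 to 109.8. SC5D, lathosterol oxidase, ranged from 543 to 811, and both ends of its TR1 pair, 543 and 796, lay near these limits. CYP51A1, lanosterol demethylase, ranged from 73.6 to 118. Its level is uncertain, since 79.3% of its exon bases are shared on the same strand with the gene AC000120.2 and it has 3 annotated pseudogenes, and reads in shared bases could be left out or split by the counting.

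Of the 5 SREBP regulators, SREBF1 was the only one called higher in a comparison of the main fit. SREBF1 (chromosome 17, 17810399 to 17837002, minus strand) read 2133 and 2277 in control, 2232 and 2243 in wild type, 2929 and 2688 in TR1 and 2418 and 2402 in TR2. Control and wild type overlapped, TR2 lay above them and TR1 above all. TR1 exceeded control by 0.35 ± 0.07 (adjusted p = 0.0144), a fold of 1.27, and wild type by 0.33 ± 0.07 (adjusted p = 0.0133), a fold of 1.25. Omitting either control library ended the first call (0.119 and 0.0511), and omitting either wild-type library the second (0.108 and 0.107). Median centring of the libraries ended both (adjusted p = 0.157 and 0.109). TR2 against control was 0.13 (adjusted p = 0.343).

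SREBF2 read 4255 and 4252 in control, 4208 and 4354 in wild type, 4334 and 3847 in TR1 and 3938 and 3963 in TR2. Its log2 fold changes lay between -0.12 and 0.01, with adjusted p from 0.418 to 0.961. For TR1 against control the fold was 0.96, with a 95% interval of 0.862 to 1.07. SCAP, the escort of the SREBPs, read 2039 and 1972 in control, 1722 and 1828 in wild type, 1847 and 1676 in TR1 and 1792 and 1789 in TR2, with control above all others. It did not pass: wild type, TR1 and TR2 against control were -0.18 (adjusted p = 0.344), -0.19 (0.129) and -0.16 (0.29).

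INSIG1, the retention factor that is itself an SREBP target, read 1988 and 1691 in control, 1780.4 and 2075 in wild type, 1514 and 1441 in TR1 and 1602 and 1668 in TR2. Both TR1 libraries were the lowest of the 8. INSIG1 was lower in TR1 than in wild type (-0.38 ± 0.10, adjusted p = 0.0363) and did not pass against control (-0.31, adjusted p = 0.0839). Omitting either wild-type library (0.0562 and 0.281) or either TR2 library (0.0716 and 0.0709) ended the first call. INSIG2, its paralog, read 164 and 133 in control, 158 and 147 in wild type, 139.6 and 206 in TR1 and 169 and 202 in TR2. INSIG2 passed in no comparison, with differences of 0.05 ± 0.20 to 0.32 ± 0.20. Of the sterol transport and binding genes, STARD4, a cytosolic cholesterol carrier, ranged from 83.8 to 221 and TMEM97, a sterol-responsive membrane protein, from 1552 to 2042. Neither passed, and TMEM97 was -0.26 in TR1 against control (adjusted p = 0.0686).

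**Figure D4:**
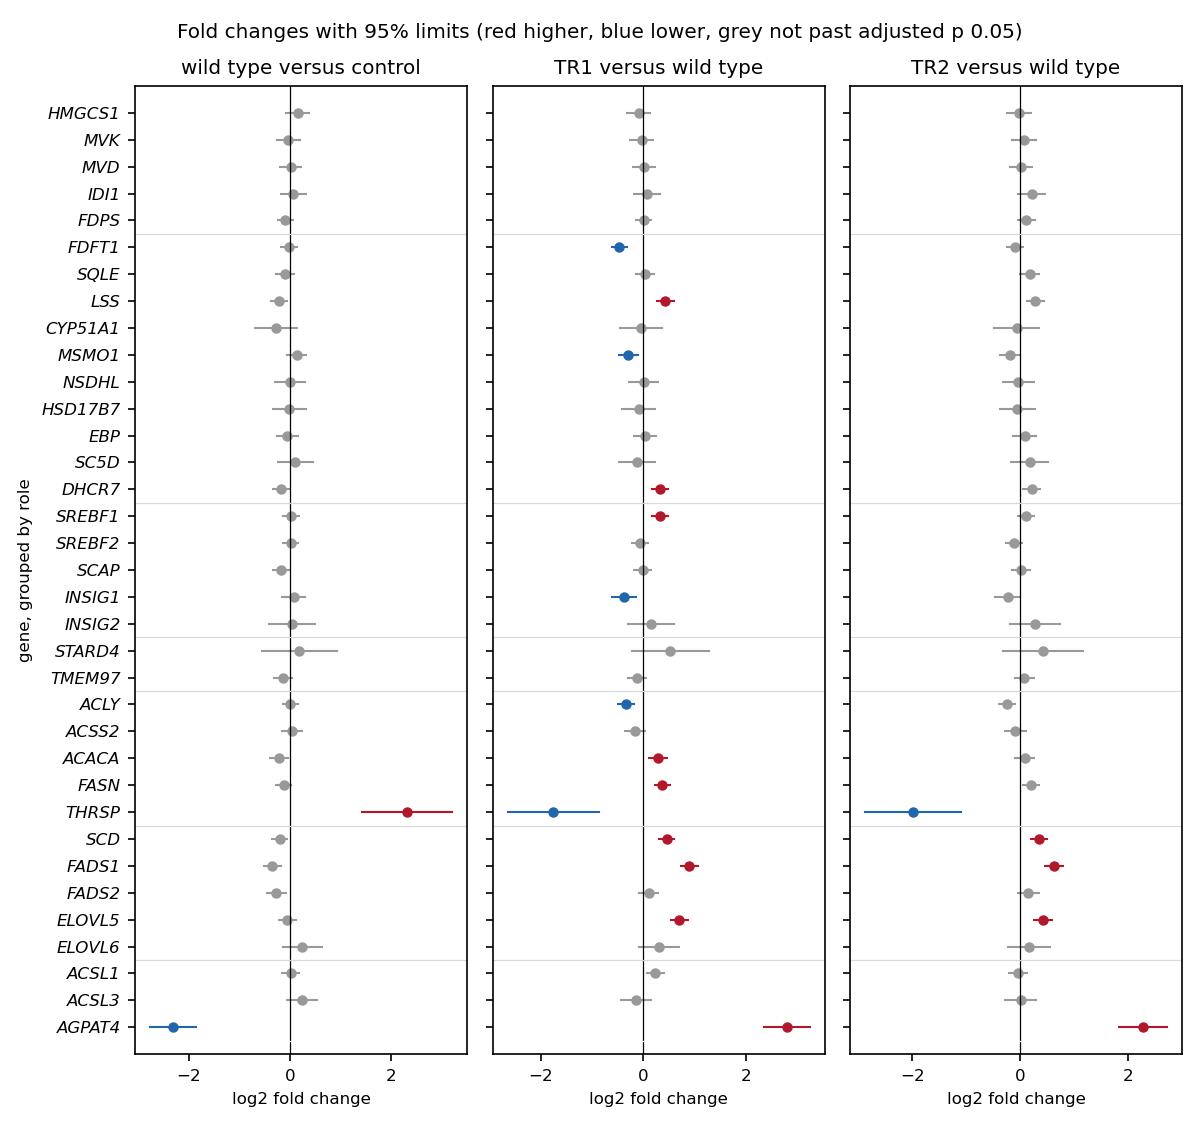
Log2 fold changes of the 35 genes with 95% intervals from the limma fit, for wild type against control and for TR1 and TR2 against wild type. Red marks genes called higher, blue lower and grey those not past the adjusted threshold of 0.05. AGPAT4 and THRSP lie far from 0 in the comparisons with wild type, and most others lie within 0.5 of it.

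The TR1 libraries differed from each other more than other pairs did in these genes too. The median size of the log2 difference between replicates was 0.175 over the 35 genes in TR1, against 0.068 in control, 0.050 in wild type and 0.076 in TR2. In TR1, 7 genes differed by more than 0.3, compared with 2 in control, 2 in wild type and 1 in TR2. STARD4 read 97.0 in TR1 replicate 1 and 221 in replicate 2, ELOVL6 399 and 608, SC5D 543 and 796, INSIG2 139.6 and 206, ACSL3 909 and 1211 and IDI1 1215 and 1544. The seventh, CYP51A1, went the other way, from 95.02 to 73.6. The 6 genes higher in replicate 2 had AT-rich transcripts: their GC content was 34.2% to 41.2%, with a median of 38.4%, against a median of 50.5% and a range of 38.1% to 65.3% in the other 29. Across the 35 genes, Pearson's r between GC content and the log2 difference of TR1 replicate 2 from replicate 1 was -0.64, and -0.30 for TR2. Genes are not independent replicates, and the points share 2 libraries. None of these 6 genes passed in any comparison. A fit with the length and GC trend of each library removed called 12 genes for TR1 against control in place of 7, and 15.75% of all genes tested in place of 10.6%.

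**Figure D5:**
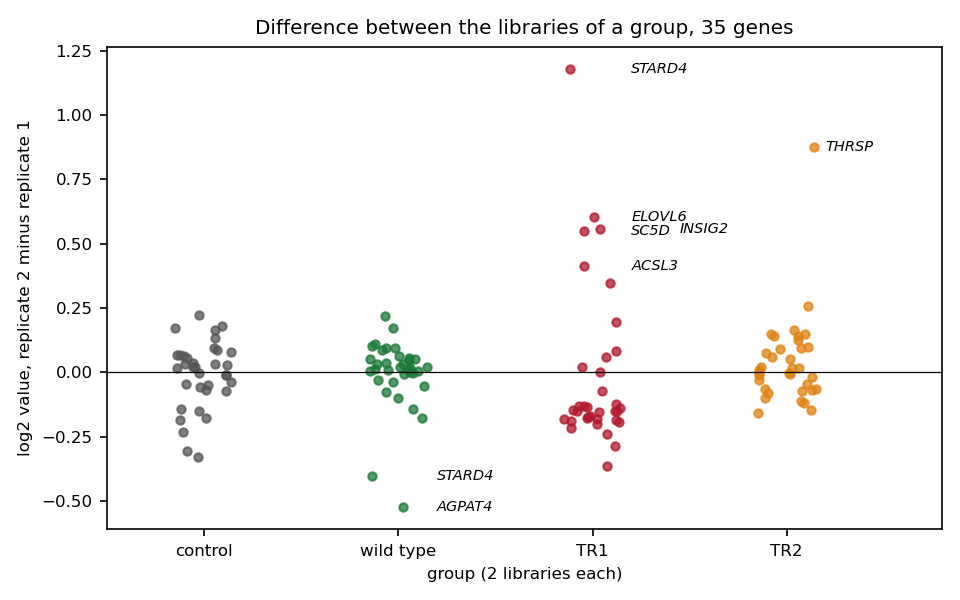
Difference between the 2 libraries of each group (log2 value, replicate 2 minus replicate 1) for the 35 genes, 1 point per gene. Most control, wild-type and TR2 points lie within 0.3 of 0, while the TR1 points spread wider, with STARD4 at 1.18.

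The rest of these pathways was read through 7 lists of other genes, of which 100 were in the table and 91 were tested. They gave 2 calls in wild type against control (1 higher, 1 lower), 12 in TR1 against control (7 and 5), 1 in TR2 against control (higher), 19 in TR1 against wild type (15 and 4), 8 in TR2 against wild type (5 and 3) and 1 in TR2 against TR1 (lower). In the order of these comparisons, 1.69%, 10.6%, 0.921%, 15%, 5.24% and 1.22% of all genes tested passed. Their median log2 fold change lay between -0.05 and 0.04. Calls that held under every alternative are marked as such, and not every called gene is named.

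In the list of other sterol synthesis genes, TM7SF2, a sterol C14 reductase, was higher in TR1 than in wild type by 0.53 ± 0.07 (adjusted p = 0.0017), which held throughout, and by 0.37 in TR2 (adjusted p = 0.0211). FAXDC2 was higher by 1.10 in TR1 than in wild type (adjusted p = 0.0484), at counts of 4.82 to 13.6. That call was lost under 15 of 17 alternatives.

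Among 11 uptake and trafficking genes tested, 2 were higher and 2 lower in TR1 than in control, 2 and 1 in TR1 than in wild type and 1 and 1 in TR2 than in wild type. Of all genes tested, 10.6%, 15% and 5.24% passed in these comparisons. SOAT1, which esterifies cholesterol, and LIPA, the lysosomal lipase, were higher in TR1 than in control by 0.42 (adjusted p = 0.0184) and 0.39 (adjusted p = 0.0258). LRP8, a lipoprotein receptor, was lower there (-0.40, adjusted p = 0.0159), as was GRAMD1A, a sterol transfer protein named here after its value was seen. Against wild type, TR1 differed by 0.55 for SOAT1 (adjusted p = 0.0035), 0.32 for LIPA (0.0416) and -0.47 for LRP8 (0.0049), and TR2 by 0.42 for SOAT1 (0.0271) and -0.45 for LRP8 (0.0146). The LIPA call against wild type was lost under 14 of 18 alternatives. In the list of SREBP processing genes, C12orf49, which takes part in activating the SREBPs, was higher in TR1 than in wild type by 0.32 (adjusted p = 0.0403). This C12orf49 call was lost under 14 of 18 alternatives.

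Of 8 efflux genes tested, ABCG1, a sterol exporter, read 137 and 140.2 in control, 278 and 237 in wild type, 85.3 and 82.8 in TR1 and 89.9 and 81.7 in TR2, high in wild type and low with both truncated forms. It was lower than in wild type by -1.60 ± 0.14 in TR1 (adjusted p = 0.00013) and by -1.57 ± 0.14 in TR2 (adjusted p = 0.00038), and both held throughout. Wild type exceeded control by 0.88 (adjusted p = 0.0159), and TR1 was below control (-0.72, adjusted p = 0.0131). APOE, an apolipoprotein that accepts cholesterol, was lower in wild type than in control (-0.59, adjusted p = 0.0036), higher in TR1 than in wild type (0.54, adjusted p = 0.00092), which held throughout, and in TR2 than in wild type (0.41, adjusted p = 0.0085). ABCA1, another exporter, read 6.44 and 2.44 in control, 17.3 and 16.0 in wild type, 31.0 and 35.1 in TR1 and 18.9 and 15.8 in TR2, lowest in control. Wild type against control was 1.80 and did not pass (adjusted p = 0.0585). For TR1 against control the ratio of its normalized reads was 7.28, with an exact 95% binomial interval of 3.51 to 17.5 for counting error only (adjusted p = 0.0029), and this call held throughout.

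Of 18 other fatty acid synthesis genes tested, HSD17B12 was higher in TR1 than in control (0.65, adjusted p = 0.0368), and ELOVL2 was lower in TR1 than in control (adjusted p = 0.0378) and wild type (adjusted p = 0.0074). ELOVL2 had 4 reads in TR1 in all, so it passed the filter through groups where it was higher. Its p-values are therefore not a fair test of it. With no filter on low values, the adjusted p of ELOVL2 was 0.185 against control and 0.0819 against wild type, and neither passed. The ratio of normalized reads was 8.90 for control against TR1 (exact 95% binomial interval 3.11 to 34.9) and 17.7 for wild type against TR1 (6.59 to 67.2). These intervals cover counting error only. MLXIPL, the carbohydrate response factor ChREBP, and MID1IP1, a THRSP paralog, were higher in TR1 than in wild type by 0.54 (adjusted p = 0.0119) and 0.40 (adjusted p = 0.02), as was MLXIP, named here after its value was seen. Of 18 glycerolipid genes tested, DGAT2, which makes triglyceride, read 54.8 and 59.7 in control, 51.1 and 55.9 in wild type, 123 and 129 in TR1 and 70.1 and 61.2 in TR2. It was higher in TR1 than in control by 1.13 ± 0.16 (adjusted p = 0.0032) and than in wild type by 1.22 ± 0.16 (adjusted p = 0.0014), which both held throughout, and lower in TR2 than in TR1 (-0.93, adjusted p = 0.0321). PCYT2 and AGPAT2 were higher in TR1 than in wild type by 0.55 (adjusted p = 0.011) and 0.35 (adjusted p = 0.0223). Of 13 oxidation and storage genes tested, CD36, a fatty acid translocase, read 17.2 and 13.4 in control, 43.6 and 87.8 in TR1 and 59.3 and 62.2 in TR2, higher by 1.96 (adjusted p = 0.007) and 1.93 (adjusted p = 0.0341). It was higher in TR1 than in wild type by 1.39 (adjusted p = 0.0228), and PPARGC1A was higher than in wild type by 1.24 in TR1 (adjusted p = 0.0147) and 1.16 in TR2 (adjusted p = 0.0399). The calls of these lists given here with an adjusted p and not marked as held throughout were lost under at least 1 alternative, with adjusted p between 0.0502 and 0.638. In TR1 against control, ELOVL2 was lost under 10 of 17, HSD17B12 under 10 of 18 and LIPA under 9 of 18. CD36 in TR2 against control and PPARGC1A in TR2 against wild type were each lost under 9 of 18, and SOAT1 in TR2 against wild type under 9 of 19. The 0.638 was SOAT1 in TR1 against control, which fell to 0.10 with the length and GC trend removed.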

How the data were processed

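RNA from 8 libraries was made into strand-specific libraries, per the labels' protocols. The submitters' processing notes list TopHat, HTSeq and hg38, with no version or role. The annotation, the strand setting and the library factors are not given in the sources used here. The deposited table gives 28859 symbols as log2 of the normalized count plus 1, as made by the authors. On the linear scale, 100% of values fell within 0.01 of a whole multiple of 1 step per library, which gave the read counts behind them.

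The 14881 genes that reached a normalized count of 10 in 2 or more libraries entered limma 3.58.1 (R 4.3.3), with a mean-variance trend in the moderation of the variances, run on the log2 values of all 8 libraries in 1 fit with group as the only term, 4 residual and 4.69 prior degrees of freedom, two-sided, Benjamini-Hochberg within each of 6 comparisons, threshold 0.05. A fold change is therefore on the scale of log2(value + 1), which understates low genes. The pipeline was tested on simulated data. The members and lists were chosen with earlier results of these data known, and so were the tests and alternatives.

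All 35 members are named. Those past the threshold and the 5 SREBP regulators get their values per library, and the others their range. Of each list of other pathway genes (sterol synthesis, uptake and trafficking, efflux, SREBP processing, fatty acid synthesis, glycerolipid synthesis, oxidation and storage), the 3 called genes that moved furthest are named per comparison, and 2 further called genes are named to complete a count. The results of some genes of these lists are not reported here. Gene coordinates are from GENCODE 29 (GRCh38) and promoters from RefSeq. Alternatives were no filter, a filter at 100, a pseudocount of 10, median centring, quantile normalization, a fit of only the groups compared, the replicate number as a block, no trend and each library left out. Added after the data were seen were voom on the recovered reads, no TR1 library in the fit, and the length and GC trend removed, which used the 12860 genes (86.4%) with a transcript.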

Additional observations from a re-analysis of the deposited data

How the results depend on the processing

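Of 29 calls of members, 11 held under every alternative and left-out library: AGPAT4 in its 3 comparisons with wild type, FDFT1, FADS1 and ELOVL5 in TR1 against control, FDFT1, SCD, FADS1 and ELOVL5 in TR1 against wild type, and FADS1 in TR2 against wild type. Every called value kept its direction. With 2 libraries a group, small differences at 13292861 to 19572394 reads rest on few degrees of freedom. Where an arm was left with 1 library, it was assumed to vary like the others.

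Counts of members called moved as follows, with the share of all genes tested that passed in the same fit in brackets. The counts also moved when a library was left out. The cause was not tested beyond the fewer samples or genes that some alternatives use. Wild type against control gave 2 (1.69%), but 1 with no filter (1.01%) or a filter at 100 (1.92%). It gave 7 with only the 2 groups (8.82%) and 8 with no TR1 library (11.7%). TR1 against control gave 7 (10.6%), but 4 with no filter (3.96%) and 3 with only the 2 groups (3.25%) or no trend (7.47%). It gave 12 with the length and GC trend removed (15.75%). Median centring turned 5 higher and 2 lower into 2 and 3 (12.7%). TR2 against control gave 0 (0.921%), but 1 with quantile normalization (1.29%) or the length and GC trend removed (1.98%). It gave 7 with only the 2 groups (14.2%) and 8 with no TR1 library (18.4%). TR1 against wild type gave 14 (15%), but 9 with median centring (11.99%), 7 with only the 2 groups (7.002%) and 8 with no trend (11.72%). TR2 against wild type gave 5 (5.24%), but 2 with no filter (2.34%) and 3 with no trend (4.43%). It gave 8 with quantile normalization (5.11%) or the length and GC trend removed (8.16%). With only the 2 groups it gave 13 (19.97%), and with no TR1 library 10 (14.15%). TR2 against TR1 gave 1 (1.22%). It gave 0 with no filter (1.098%), median centring (1.431%), only the 2 groups (0.3965%), the block (0.84%) or no trend (0.7661%).

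Counts of the other pathway genes moved too, and are to be read beside the same moves in the share of all genes. Wild type against control gave 2, but 6 with quantile normalization, 13 with only the 2 groups or no TR1 library, 4 with the length and GC trend removed and 0 to 13 with a library left out. TR1 against control gave 12, but 6 with no filter, 3 with only the 2 groups, 7 with no trend and 4 to 38 with a library left out. TR2 against control gave 1, but 0 with no filter, a filter at 100, no trend or voom, 3 with median centring or quantile normalization, 13 with only the 2 groups, 15 with no TR1 library, 4 with the length and GC trend removed and 0 to 15 with a library left out. TR1 against wild type gave 19, but 11 with no filter, 10 with only the 2 groups and 8 to 31 with a library left out. TR2 against wild type gave 8, but 5 with no filter, median centring or no trend, 21 with only the 2 groups, 18 with no TR1 library and 2 to 18 with a library left out. TR2 against TR1 gave 1, but 0 with only the 2 groups or the block and 0 to 7 with a library left out.

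Over all genes tested, only the 2 groups gave 1313 calls for wild type against control in place of 251, 483 for TR1 against control in place of 1578, 2115 for TR2 against control in place of 137, 1042 for TR1 against wild type in place of 2229, 2971 for TR2 against wild type in place of 780 and 59 for TR2 against TR1 in place of 181.

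Log2 differences that reversed were all of genes that did not pass. With the length and GC trend removed, TR1 against control was -0.27 for ACSL3, -0.036 for IDI1 and -0.17 for INSIG2, and TR2 against control was -0.087 for ACSL3. Median centring gave -0.0050 for ACSL3 in TR1 against control. With each library left out in turn, TR1 against control ranged from -0.12 to 0.29 for ACSL3, from -0.034 to 0.31 for IDI1, from -0.081 to 0.48 for INSIG2 and from -0.29 to 0.26 for SC5D, which passed at 0.26 (adjusted p = 0.03, without TR1 replicate 1). TR1 against wild type ranged from -0.35 to 0.065 for ACSL3, from -0.0012 to 0.60 for ELOVL6, from -0.10 to 0.25 for IDI1, from -0.39 to 0.16 for SC5D and from -0.062 to 1.12 for STARD4. TR2 against TR1 ranged from -0.054 to 0.36 for ACSL3, from -0.43 to 0.17 for ELOVL6, from -0.031 to 0.32 for IDI1 and from -0.70 to 0.48 for STARD4. Apart from ACSL3 without control replicate 2, the reversals among these came with 1 TR1 library left out.

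The labels number the replicates 1 and 2 in each group. Deviations of same-numbered libraries correlated at -0.04, -0.04, -0.07, -0.09, -0.001 and 0.15 over the 6 pairs of groups. With 2 libraries a group, these values cannot exclude that same-numbered libraries were handled together, and the labels do not say. The main fit did not pair them. With the replicate number as a block, the members called were 2, 5, 0, 11, 5 and 0 in place of 2, 7, 0, 14, 5 and 1. Of all genes tested, 1.236%, 8.387%, 0.6653%, 11.96%, 4.113% and 0.84% passed in that fit.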
